A study of Bos taurus with 30 samples.

Results

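Keratin 18 (KRT18) and 3 genes of epithelial structure, keratin 8 (KRT8), E-cadherin (CDH1) and cingulin (CGN), were followed in the bovine corpus luteum, the ovarian gland that makes progesterone after ovulation. The 4 genes were taken by gene symbol from the platform annotation, and they were chosen by the difference of KRT18 between the days of the cycle in these same arrays. They were measured by 5 of the 24128 probe sets on the array: 1 each for KRT18, KRT8 and CGN, and 2 for CDH1. The 4 genes were part of 9155 genes that had at least 1 probe set with a single symbol.

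Corpora lutea came from 30 Angus crossbred heifers in 6 groups of 5, with 1 array per heifer. The labels place the glands at day 4 or day 11 of the estrous cycle. On each day, the 0 h group was the control and had been injected with saline, and the other groups had been injected with prostaglandin F2α (PGF2α) and were collected 4 h or 24 h later. PGF2α is the uterine signal that ends the life of the corpus luteum, and the young gland is known to resist it. Total RNA of the whole gland was hybridised to the Affymetrix GeneChip Bovine Genome Array, so the values mix all cell types of the gland, and fewer cells of a type and less RNA per cell cannot be told apart. All values are log2 signals as the authors deposited them, and a difference of 1 is a 2-fold change.

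Keratins form the intermediate filaments of epithelial cells. KRT18 is a type I keratin that assembles only with a type II partner, in simple epithelia mostly KRT8. In the ovary, KRT8 and KRT18 are known from granulosa cells and from luteal cells of the young corpus luteum. CDH1 is the calcium-dependent adhesion molecule of adherens junctions and binds catenins inside the cell. CGN is a protein of the cytoplasmic plaque of tight junctions and is known to bind ARHGEF2, an activator of the small GTPase RhoA.

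The arrays were alike in scale, with array medians between 6.01 and 6.16, and arrays of a group correlated at 0.978 to 0.994 across probe sets. Replicate 1 of the day 4, 24 h group lay nearest to another group, the day 4 controls. Replicate 1 of the day 11, 4 h group stood apart in controls for RNA integrity, but not in 1 direction. Its 3′ minus 5′ difference was -1.40 for the EF1A control, above the -2.46 to -2.28 of the other arrays of its group. For GAPDH it was 0.09, below their 0.35 to 0.61, and for actin it was 2.04, inside their range of 2.04 to 2.40. Steroidogenic cell markers were high in all groups, STAR at group means of 12.15 to 13.60 and CYP11A1 at 12.75 to 13.47, which fits the labelled tissue. Without these 2 arrays, each difference of the 4 genes reported below as passing or missing the threshold stayed on the same side of it.

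KRT18 had the widest range of the 4 genes, with group means that spanned 5.33. In the day 4 controls its signal was 12.60, 12.19, 12.72, 12.32 and 12.02 in replicates 1 to 5 (12.37 ± 0.29, SD, n = 5). In the day 11 controls it was 7.30, 7.65, 7.11, 6.72 and 7.59 (7.27 ± 0.38). Every day 4 control array lay above every day 11 control array. This difference of -5.10 ± 0.29 (SE; day 11 minus day 4), or 34.3-fold, is the one that chose the genes, and it is given without a test.

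After PGF2α on day 11, the signal of KRT18 at 4 h was 11.66, 12.39, 11.996, 11.61 and 12.05 (11.94 ± 0.32, SD, n = 5). At 24 h it was 8.14, 7.89, 9.65, 8.98 and 9.13 (8.76 ± 0.73). The 4 h arrays were thus all far above the controls, at 4.67 ± 0.29 (SE) or 25.4-fold, and the 24 h arrays lay in between, at 1.49 ± 0.29 or 2.80-fold above the controls, with no overlap among the 3 groups. These differences share the control arrays that chose KRT18 and are given without a test. The array that stood apart in the EF1A and GAPDH controls, with 11.66, was inside the range of its group.

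Between 4 h and 24 h on day 11, where no control array entered, KRT18 fell by 3.18 ± 0.29 (SE; 95% interval of the difference -3.77 to -2.60), which is 9.08-fold (limma, adjusted p = 2.4e-09). All 5 arrays at 24 h were below all 5 at 4 h. In this comparison 10.7% of all probe sets fell and 12.5% rose.

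On day 4 the signal of KRT18 at 4 h was 11.91, 12.72, 12.76, 12.72 and 12.89 (12.60 ± 0.39, SD, n = 5). At 24 h it was 12.40, 12.02, 11.72, 10.74 and 11.51 (11.68 ± 0.62). Against the controls, the 4 h mean differed by 0.23 ± 0.29 (SE) and the 24 h mean by -0.69 ± 0.29, both without a test, and the arrays of these groups overlapped those of the controls.

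From 4 h to 24 h on day 4, KRT18 fell by 0.92 ± 0.29 (SE; interval -1.50 to -0.34), or 1.89-fold (limma, adjusted p = 0.027), and 1 array at 4 h, replicate 1, lay within the range of the 24 h arrays. This call was lost without any 1 of replicates 2 to 5 at 4 h, or without replicate 4 or 5 at 24 h, with adjusted p of 0.053 to 0.12 in limma and a smallest difference of -0.69. In this comparison 7.24% of all probe sets fell and 7.67% rose.

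KRT18 came down further between 4 h and 24 h on day 11 than on day 4. The change was -0.92 on day 4 and -3.18 on day 11, so that they differed by -2.26 ± 0.40 (SE; interval -3.09 to -1.44). This is also the day difference at 24 h minus that at 4 h. For such a difference between days 17.6% of all probe sets passed in limma, 9.04% higher and 8.54% lower on day 11, and nothing is read from it for the 4 genes. Comparing the days at the same time, the day 11 mean was -0.66 ± 0.29 from that of day 4 at 4 h, where the arrays overlapped, and -2.92 ± 0.29 at 24 h, where they did not. All these day differences are descriptions without a test, here and for the other 3 genes, since the rule used the day difference.

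**Figure D1:**
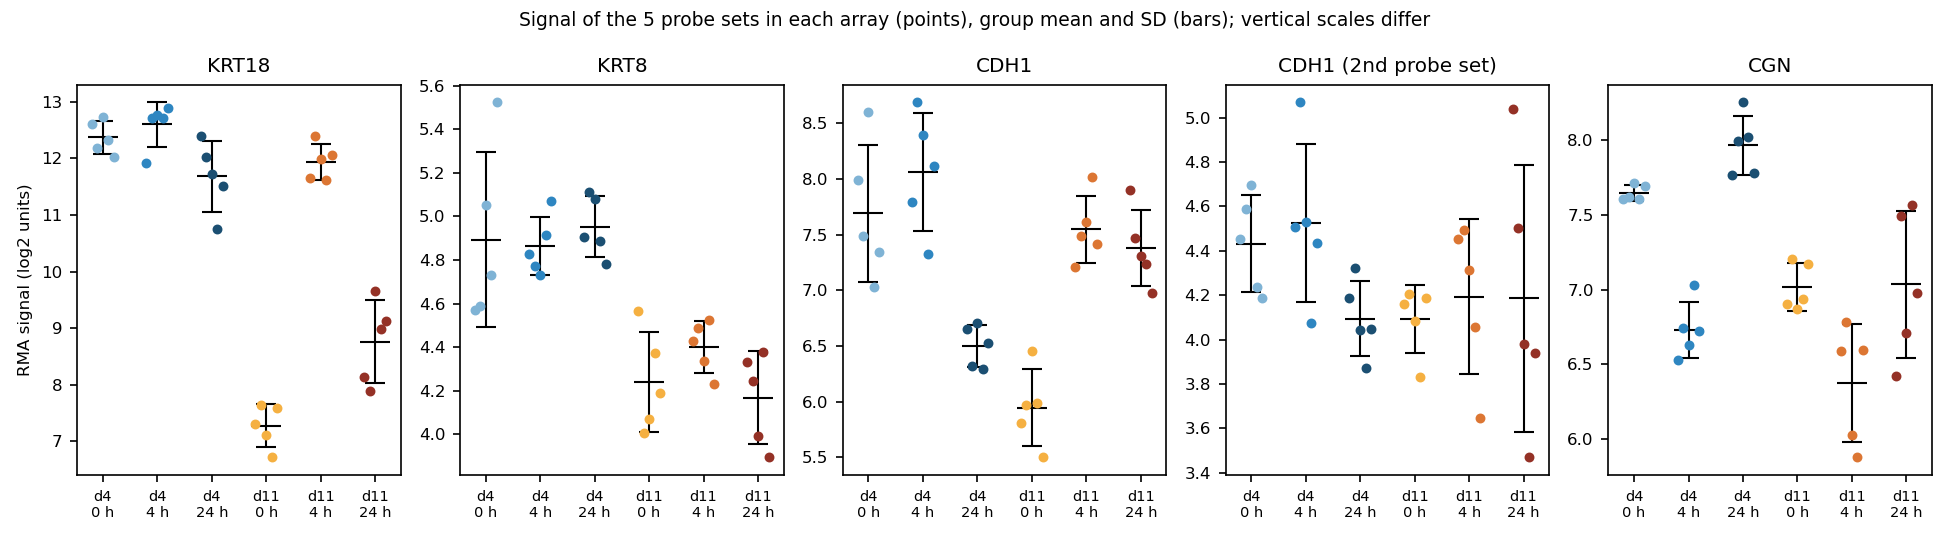
Each point is 1 array, the signal in log2 units is on the vertical axis, the 6 groups of 5 arrays are on the horizontal axis (d4 and d11, days of the cycle; hours after injection), and bars give the mean and SD; the scales differ between panels. KRT18 is near 12 in 4 of the groups and low only in day 11 controls (7.27) and at day 11, 24 h (8.76), CDH1 is lowest in day 11 controls (5.95), and CGN is lowest at 4 h on both days (6.73 and 6.37).

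Ordered by its means, KRT18 ran from day 4 at 4 h through the day 4 controls, day 11 at 4 h and day 4 at 24 h, to day 11 at 24 h and the day 11 controls. The gaps between the highest 4 groups, of 0.23, 0.43 and 0.26, were bridged by overlapping arrays. The next gaps, of 2.92 and 1.49, separated groups that did not overlap.

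KRT8, the type II partner, gave a dim signal in all 30 arrays, between 3.89 and 5.52 and below the lowest array median. In day 4 glands it was 4.57, 4.59, 5.05, 4.73 and 5.52 in the controls (4.89 ± 0.40, SD, n = 5). It was 4.83, 4.77, 4.73, 4.92 and 5.07 at 4 h (4.86 ± 0.13) and 4.90, 5.11, 5.08, 4.89 and 4.78 at 24 h (4.95 ± 0.14). These 3 groups overlapped throughout.

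In day 11 glands KRT8 was 4.57, 4.01, 4.07, 4.37 and 4.19 in the controls (4.24 ± 0.23), 4.43, 4.49, 4.34, 4.52 and 4.23 at 4 h (4.40 ± 0.12) and 4.33, 4.24, 3.99, 4.38 and 3.89 at 24 h (4.17 ± 0.21). Day 11 means were -0.65, -0.46 and -0.78 from those of day 4 at 0, 4 and 24 h (SE 0.14 each; no test, since the rule used the day difference). At each time the lowest day 4 array was above the highest day 11 array, in the controls by less than the printed precision (both 4.57).

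KRT8 passed in 0 of its 6 tested comparisons with limma, and in 0 of 6 at an unadjusted p under 0.05. At 4 h on day 11, where KRT18 was 25.4-fold above its controls, KRT8 was 0.16 ± 0.14 (SE) from its own, with an interval of -0.13 to 0.45 (limma, adjusted p = 0.50). The 24 h glands of day 11 differed from controls by -0.07 (interval -0.36 to 0.22; adjusted p = 0.77), and from 4 h to 24 h it was -0.23 (interval -0.52 to 0.05; adjusted p = 0.27). On day 4 the differences were -0.03 at 4 h (interval -0.32 to 0.26; adjusted p = 0.98) and 0.06 at 24 h (interval -0.23 to 0.35; adjusted p = 0.91). The change from 4 h to 24 h was 0.09 on day 4 (adjusted p = 0.79), and its difference between days, without a test, was -0.32 (interval -0.73 to 0.09). The intervals bound a KRT8 change as read by this probe set, which gives no measure of how far its dim signal lies above background. The KRT8 and KRT18 genes are next to each other in the bovine reference, and EIF4B, a translation factor on the other side of KRT18, had group means of 10.72 to 11.21.

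CDH1 moved in both directions, by day. Its brighter probe set read 5.81, 5.97, 6.46, 5.99 and 5.50 in the day 11 controls (5.95 ± 0.35, SD, n = 5). It read 7.21, 7.49, 7.61, 8.02 and 7.41 at 4 h (7.55 ± 0.30) and 7.90, 7.47, 7.31, 7.24 and 6.97 at 24 h (7.38 ± 0.34). All treated day 11 arrays were above all controls, while 4 h and 24 h overlapped.

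On day 11 CDH1 thus rose by 1.60 ± 0.24 (SE; interval 1.10 to 2.10), or 3.04-fold, at 4 h (limma, adjusted p = 2.3e-05), where 8.02% of all probe sets rose and 10.3% fell. At 24 h it was still 1.43 (interval 0.93 to 1.93), or 2.70-fold, above the controls (limma, adjusted p = 3.5e-05), where 14.3% of all probe sets rose and 15.4% fell. Between 4 h and 24 h the difference was -0.17 (interval -0.67 to 0.33; adjusted p = 0.70), and KRT18 fell by 3.18 over the same hours.

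On day 4 CDH1 read 7.99, 7.48, 8.60, 7.03 and 7.35 in the controls (7.69 ± 0.62, SD, n = 5), 7.79, 8.69, 8.39, 7.33 and 8.12 at 4 h (8.06 ± 0.53) and 6.65, 6.32, 6.70, 6.29 and 6.52 at 24 h (6.50 ± 0.19). The 24 h arrays lay below every array of the other 2 groups, which overlapped.

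At 4 h on day 4 the difference from controls was 0.37 (interval -0.13 to 0.87) and did not pass (limma, adjusted p = 0.56). At 24 h CDH1 fell by 1.19 ± 0.24 (SE; interval -1.69 to -0.69), or 2.28-fold, against the controls (limma, adjusted p = 0.0059), where 3.05% of all probe sets fell and 2.12% rose. In a fit of only the arrays of the compared groups, the adjusted p of that fall was 0.053. Against 4 h it fell by 1.56 (interval -2.07 to -1.06), or 2.96-fold (limma, adjusted p = 5.7e-05). As a description without a test, the change from 4 h to 24 h differed between days by 1.39 ± 0.35 (SE; day 11 minus day 4; interval 0.68 to 2.10), where that of KRT18 differed by -2.26.

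As a description, the day difference of CDH1 changed sign: the day 11 mean was -1.74 from that of day 4 in the controls, -0.51 at 4 h, with overlap, and 0.88 at 24 h. In the order of its means CDH1 ran from day 4 at 4 h through the day 4 controls, day 11 at 4 h and day 11 at 24 h, to day 4 at 24 h and the day 11 controls. The only step without overlap was that of 0.88 between day 11 and day 4 at 24 h.

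The other CDH1 probe set was dim, between 3.47 and 5.07 in the 30 arrays, and passed in 0 of its 6 tested comparisons (limma, adjusted p of 0.18 to 0.99) and in 1 at an unadjusted p under 0.05. It read 0.10 at 4 h and 0.09 at 24 h against controls on day 11, and -0.34 at 24 h against controls and -0.43 against 4 h on day 4. The deviations of both probe sets from their group means had a Pearson correlation of 0.484 over the 30 arrays, which share the same RNA. With the mean of both probe sets in place of the brighter one, the rises on day 11 were 0.85 at 4 h and 0.76 at 24 h, the falls on day 4 were -0.77 against controls and -0.997 against 4 h, and each still passed (limma, adjusted p of 0.00062 to 0.013). The difference between days in the change from 4 h to 24 h was then 0.91.

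CGN was lower at 4 h on both days. In day 4 glands it read 7.61, 7.62, 7.71, 7.61 and 7.69 in the controls (7.65 ± 0.05, SD, n = 5), 6.53, 6.74, 6.63, 7.03 and 6.72 at 4 h (6.73 ± 0.19) and 7.77, 7.99, 8.25, 8.02 and 7.78 at 24 h (7.96 ± 0.20). The 4 h arrays were all below the controls, and the 24 h arrays were all above both.

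CGN fell by 0.92 ± 0.18 (SE; interval -1.28 to -0.56), or 1.89-fold, at 4 h on day 4 (limma, adjusted p = 0.0016). Only 1.55% of all probe sets fell and 2.69% rose in that comparison. From 4 h to 24 h it rose by 1.23 (interval 0.88 to 1.59), or 2.35-fold (limma, adjusted p = 1.7e-05). The difference of 0.32 between 24 h and the controls did not pass (interval -0.04 to 0.68; adjusted p = 0.37), although the arrays did not overlap.

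On day 11 CGN read 6.90, 7.20, 6.87, 6.94 and 7.17 in the controls (7.02 ± 0.16, SD, n = 5), 6.59, 6.78, 6.03, 5.88 and 6.59 at 4 h (6.37 ± 0.40) and 6.42, 7.49, 6.71, 7.57 and 6.97 at 24 h (7.03 ± 0.49). The 4 h arrays were again all below the controls, and the 24 h arrays overlapped both groups.

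It fell by 0.64 ± 0.18 (SE; interval -1.001 to -0.28), or 1.56-fold, at 4 h (limma, adjusted p = 0.0095). From 4 h to 24 h it rose by 0.66 (interval 0.30 to 1.02), or 1.58-fold (limma, adjusted p = 0.0056), with an adjusted p of 0.083 in a fit of only those groups. At 24 h it was 0.02 from the controls (interval -0.34 to 0.38; adjusted p = 0.96).

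The rise of CGN from 4 h to 24 h was smaller on day 11 by an estimated -0.57 ± 0.25 (SE; interval -1.08 to -0.07), given without a test. As a description, day 11 means of CGN were -0.63, -0.36 and -0.93 from those of day 4 at 0, 4 and 24 h, and the arrays of the days overlapped only at 4 h.

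**Figure D2:**
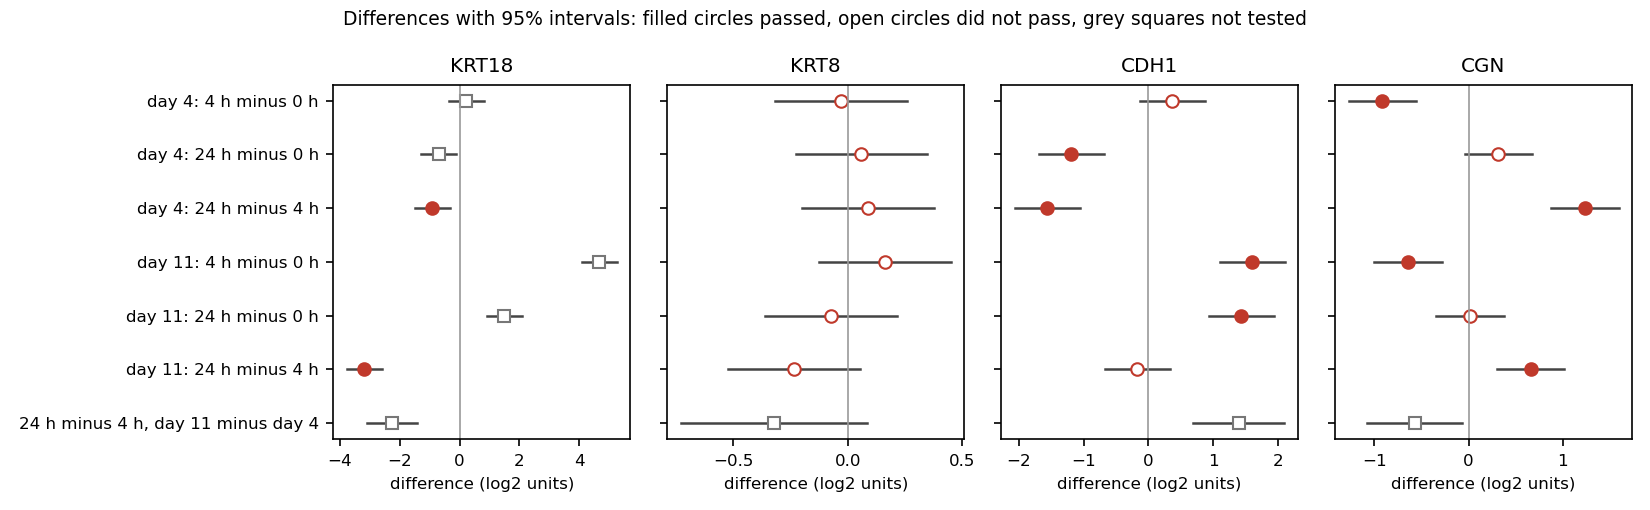
Differences between groups in log2 units (horizontal axis, scale by panel) for each gene and comparison, with 95% intervals; filled circles passed at an adjusted p under 0.05, open circles did not, and grey squares were not tested because the rule used them. CDH1 and CGN lie on opposite sides of 0 at 4 h on day 11 (1.60 and -0.64), and KRT8 crosses 0 in every comparison.

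Counted by gene, 1 of the 3 tested genes passed in each day 4 comparison with controls: CGN, lower, at 4 h, and CDH1, lower, at 24 h, with 4.24% and 5.16% of all probe sets passing. At 4 h on day 11, 1 rose and 1 fell, with 18.4% of all probe sets passing. Only CDH1 passed at 24 h on day 11, beside 29.7% of all probe sets. Between 4 h and 24 h, 3 of the 4 genes passed on day 4 and 2 on day 11, beside 14.9% and 23.2% of all probe sets. These comparisons share arrays, since the control and 4 h groups each enter several of them.

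Within groups, no pair of the 4 genes passed a test of being high in the same heifers. Of the 6 pairs of genes, the strongest correlation of deviations from group means was that of CDH1 with CGN, with Pearson r = -0.329 (n = 30; permutation p = 0.044, adjusted 0.26) and Spearman rho = -0.291 (permutation p = 0.12, adjusted 0.70). It was -0.344 without the 2 arrays farthest from the median of CDH1. For KRT18 and its partner KRT8, r was -0.212 and rho -0.197 (permutation p = 0.25 and 0.35, adjusted 0.75 and 0.70), and for KRT18 and CDH1 they were 0.0173 and 0.0345 (permutation p = 0.92 and 0.86, adjusted 0.98 and 0.86).

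Markers of other cell types moved with some of these results. In day 4 glands at 24 h, 9 of 9 measured markers of dividing cells were below controls (adjusted p under 0.05), beside 3.05% of all probe sets. Below 4 h were 8 of 9, beside 7.24%. The log2 summed signal of these markers was 13.15 to 13.44 in controls, 12.94 to 13.27 at 4 h and 10.53 to 13.23 at 24 h. At 24 h it was 13.23, 11.52, 12.06, 10.53 and 12.59 in replicates 1 to 5, where KRT18 was 12.40, 12.02, 11.72, 10.74 and 11.51. Both were highest in replicate 1, the array nearest to the day 4 controls, and lowest in replicate 4. Replicates 2, 3 and 5 ran in opposite orders in the 2 measures. The part of dividing cells in the fall of KRT18 was not tested. On day 11, where KRT18 fell between 4 h and 24 h, 0 of the 9 passed in limma (1 at an unadjusted p under 0.05), beside 23.2% of all probe sets. The sums of these markers were 10.70 to 11.26 at 4 h and 10.92 to 11.34 at 24 h. Other markers did change over these hours. Of 10 steroidogenic markers 7 were lower and 0 higher, and of 13 endothelial markers 5 were lower and 1 higher. Of 11 granulosa markers 3 were lower and 1 higher. Of 8 fibroblast markers 6 were higher (5 without both arrays that stood apart) and 0 lower. Of all probe sets, 10.7% fell and 12.5% rose. The part of these shifts in that fall of KRT18 was not tested.

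Mesothelium and ovarian surface epithelium also make KRT8 and KRT18, and can make CDH1. Of 13 markers listed for them, 7 were measured, and 4 of these were below the lowest array median in all groups: EPCAM at group means of 2.79 to 3.22, KRT19 at 3.66 to 4.20, KRT7 at 4.99 to 5.22 and UPK3B at 5.27 to 5.63. Their summed signal was 9.85 to 10.35 in day 11 controls, 10.60 to 11.09 at 4 h and 10.89 to 11.13 at 24 h, led by PDPN, which lymphatic vessels also make. It was 9.62 to 10.05, 9.97 to 10.46 and 9.60 to 10.04 on day 4. MSLN, a surface marker of mesothelium, had means of 5.80, 5.72 and 6.43 on day 4 and 7.96, 7.88 and 7.28 on day 11. Its course on day 11 thus differed from that of the summed signal. Of the 7 markers, 1 rose at 4 h on day 11 (14.3%, beside 18.4% of all probe sets). At 24 h on day 11, 1 rose and 1 fell (28.6%, beside 29.7%). The part of these cells in the changes of KRT18 and CDH1 was not tested.

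Granulosa cell markers gave summed signals of 13.28 to 13.41 in day 4 controls and 12.87 to 13.14 in day 11 controls, then 13.45 to 13.58 at 4 h and 12.89 to 13.36 at 24 h on day 11. Of the 11 measured, 2 rose and 1 fell at 4 h on day 11 (27.3%, beside 18.4% of all probe sets). At 24 h on day 11, 3 rose and 4 fell (63.6%, beside 29.7%). FSHR (2.95 to 4.27), FOXL2 (4.00 to 4.23) and AMH (4.94 to 5.34) were dim in all groups. At 4 h on day 11, 3 of 5 neutrophil, 2 of 8 macrophage and 5 of 13 endothelial markers were above controls. In the same comparison 4 of 10 steroidogenic and 1 of 13 endothelial markers were below them. Of all probe sets, 8.02% rose and 10.3% fell there. Without both arrays that stood apart, 2 neutrophil and 4 endothelial markers were above controls and 3 steroidogenic markers below them. At 24 h on day 11, 9 of 10 steroidogenic and 6 of 13 endothelial markers were below controls, beside 15.4% of all probe sets. Above controls were 5 of 8 macrophage, 3 of 5 neutrophil, 6 of 9 T and NK cell and 4 of 8 fibroblast markers. So was 1 of 13 endothelial markers (2 without both arrays that stood apart), beside 14.3% of all probe sets. The part of these shifts in the changes of KRT18, CDH1 and CGN was not tested.

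The other keratins and intermediate filament genes were mostly dim: of 51 listed, 26 were measured, and 18 of these lay below the lowest array median in all groups. At 4 h on day 11, 2 rose and 1 fell, 11.5% of the list beside 18.4% of all probe sets, with a median difference of 0.07 (all genes: -0.04). KRT10, a type I keratin of stratified epithelia, fell by 0.68 ± 0.19 (SE; adjusted p = 0.010), with means of 7.82 in controls and 7.14 at 4 h. By 24 h on day 11, 4 rose and 2 fell, 23.1% of the list beside 29.7% of all probe sets. Among them was BFSP1, a filament protein known from the lens, which rose by 1.38 ± 0.18 (adjusted p = 6.1e-07). Vimentin (VIM), the filament protein of mesenchymal cells, had means between 13.03 and 13.46 and did not pass in any of the 6 comparisons within a day (limma, adjusted p of 0.27 to 0.93). On day 4, 0 of 26 passed at 4 h in limma (1 at an unadjusted p under 0.05), beside 4.24% of all probe sets. At 24 h, 2 fell (7.69%, beside 5.16%), the nuclear lamins LMNB1 (-1.27 ± 0.33, adjusted p = 0.021) and LMNA (-0.60 ± 0.17, adjusted p = 0.029, with 1 of 2 probe sets).

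Among adherens junction and catenin genes other than CDH1, 16 of 39 were measured, all with a signal above the lowest array median in at least 1 group. N-cadherin (CDH2), which luteal and granulosa cells use for adhesion, had means of 9.09, 8.72 and 10.09 on day 4 and 8.37, 8.84 and 10.81 on day 11 at 0, 4 and 24 h. It rose at 24 h against controls by 1.00 ± 0.23 on day 4 (SE; adjusted p = 0.011) and by 2.43 ± 0.23 on day 11 (adjusted p = 2.5e-09). So at 24 h on day 4 CDH2 rose while CDH1 fell, and on day 11 both were above controls. The catenin-binding CTNNBIP1 rose by 1.24 ± 0.12 at 24 h on day 11 (adjusted p = 8.3e-09), and CTNNAL1, related to alpha-catenin, by 1.82 ± 0.17 at 4 h (adjusted p = 1.1e-08). Beta-catenin (CTNNB1), which binds CDH1 directly, had means of 11.34 to 11.66 and rose from 4 h to 24 h on day 11 by 0.32 ± 0.07 (adjusted p = 0.0019). Alpha-catenin (CTNNA1), which links it to actin, had means of 9.94 to 10.25 and did not pass in any of these 6 comparisons (limma, adjusted p of 0.45 to 0.99). Plakoglobin (JUP), a catenin of adherens junctions and desmosomes, rose by 0.62 ± 0.18 at 4 h on day 4 (adjusted p = 0.041) and by 0.59 ± 0.18 on day 11 (adjusted p = 0.018). In all, 2 of the 16 passed at 4 h on day 4, JUP and the cadherin CDH5, both higher (12.5%, beside 4.24% of all probe sets). JUP is also counted among the desmosome genes below, and CDH5 (1 of 2 probe sets) among the endothelial markers. On day 11, 5 rose and 1 fell at 4 h (37.5%, beside 18.4%), and 7 passed at 24 h, all higher (43.8%, beside 29.7%), with medians in these 3 comparisons of 0.17, 0.04 and 0.12 (all genes: -0.02, -0.04 and -0.01). Without both arrays that stood apart, 3 rose and 1 fell at 4 h on day 11.

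Of 58 tight junction and polarity genes other than CGN, 33 were measured, 13 of them dim in all groups. ARHGEF2, the binding partner of CGN, had means of 8.32, 8.97 and 8.11 on day 4 and 8.28, 9.27 and 9.22 on day 11 at 0, 4 and 24 h. It rose by 0.65 ± 0.12 at 4 h on day 4 (SE; adjusted p = 0.0012) and by 0.99 ± 0.12 on day 11 (adjusted p = 7.2e-07), where CGN fell, with 2 of its 3 probe sets passing each time. From 4 h to 24 h on day 4 it fell by 0.86 ± 0.12 (adjusted p = 1.4e-05) and CGN rose. This opposite course did not hold on day 11. There CGN rose from 4 h to 24 h by 0.66, while ARHGEF2 differed by -0.04 ± 0.12 (adjusted p = 0.87). At 24 h on day 11 ARHGEF2 was 0.95 ± 0.12 above controls (adjusted p = 4.2e-07), and CGN was 0.02 from them. Claudin 1 (CLDN1), a strand protein of epithelial tight junctions, rose by 1.82 ± 0.29 at 4 h (adjusted p = 3.2e-05) and 1.26 ± 0.29 at 24 h on day 11 (adjusted p = 0.00098), with both of its probe sets. Claudin 5 (CLDN5), a claudin of endothelium, rose by 0.67 ± 0.20 at 4 h on day 4 (adjusted p = 0.047), when 4 of 13 endothelial markers, a list that holds it, rose and 1 fell. Of the 33, 3 passed at 4 h on day 4, all higher (9.09%, beside 4.24% of all probe sets). On day 11, 7 rose and 3 fell at 4 h (30.3%, beside 18.4%), and 4 rose and 3 fell at 24 h (21.2%, beside 29.7%), with medians in these 3 comparisons of 0.06, 0.01 and -0.03. Without both arrays that stood apart, 7 rose and 3 fell at 24 h on day 11.

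**Figure D3:**
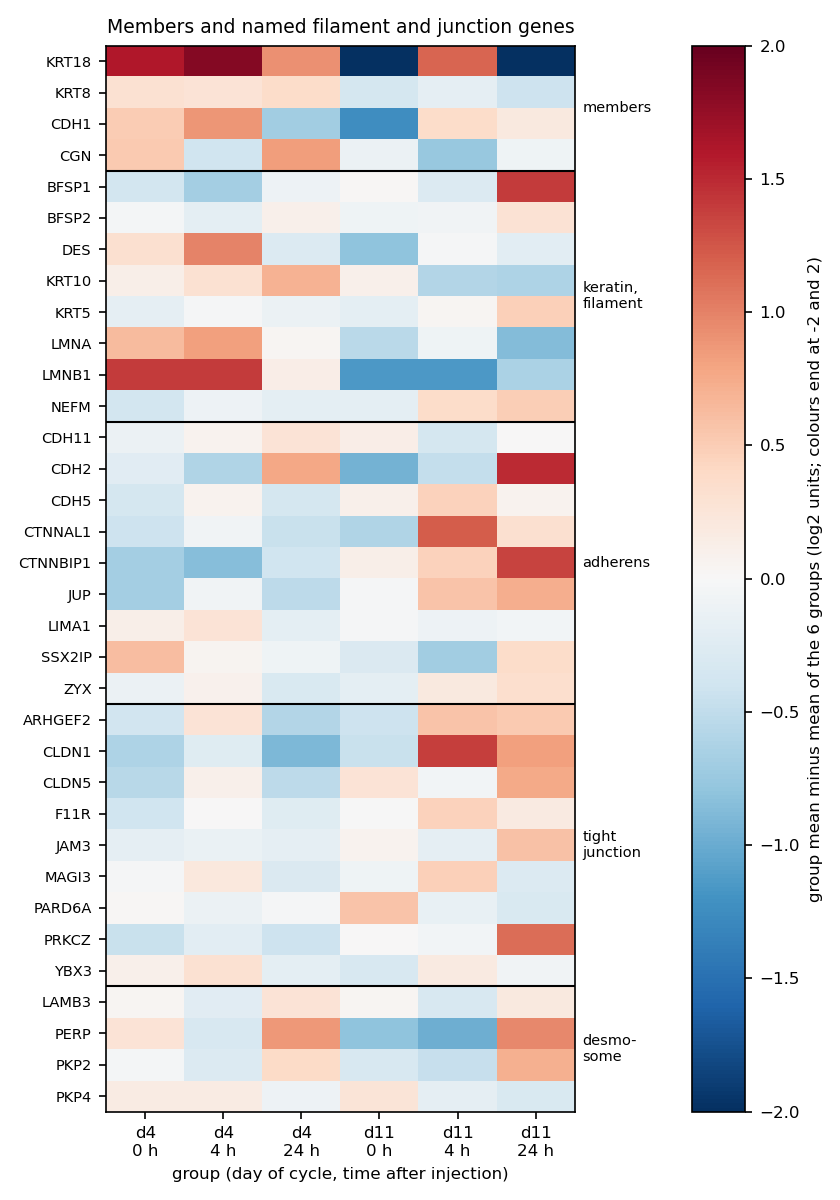
Colours give each group's mean minus the mean of the 6 group means in log2 units (scale ends at -2 and 2), for the 4 genes and for the named filament, adherens, tight junction and desmosome genes (rows), in 6 groups of 5 arrays (columns). KRT18 goes past the lower end of the scale in day 11 controls and at day 11, 24 h, CGN and ARHGEF2 have opposite colours at 4 h on both days, and CDH2 is highest at day 11, 24 h (10.81).

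Desmosome and hemidesmosome genes, which tie keratin filaments to the cell surface, were measured for 13 of 24, and 10 of the 13 were dim in all groups. At 24 h on day 11, 3 rose and 1 fell, 30.8% of the list beside 29.7% of all probe sets, and the median was 0.12. PERP, a tetraspan protein of desmosomes, rose by 1.77 ± 0.25 (SE; adjusted p = 2.1e-06) to a mean of 5.01, and plakophilin 2 (PKP2) by 1.03 ± 0.33 (adjusted p = 0.017) to 5.40. Of 45 other genes of epithelial identity, 29 were measured and 21 were dim in all groups. At 4 h on day 4, 0 passed in limma (4 at an unadjusted p under 0.05), beside 4.24% of all probe sets. At 24 h on day 4, 2 rose and 1 fell (10.3%, beside 5.16%). On day 11, 2 rose at 4 h (6.9%, beside 18.4%), and 1 rose and 3 fell at 24 h (13.8%, beside 29.7%). CD9, a tetraspanin of many cell types, rose by 0.95 ± 0.11 at 4 h on day 11 (adjusted p = 4.2e-07). GRHL1, an epithelial transcription factor, fell by 2.06 ± 0.26 at 24 h on day 11 (adjusted p = 4e-07). MAL2, a protein of apical transport with 1 of 2 probe sets passing each time, rose by 0.84 ± 0.22 at 24 h on day 4 (adjusted p = 0.021) and fell by 1.13 ± 0.22 on day 11 (adjusted p = 0.00016), the reverse of CDH1.

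Regulators of epithelial to mesenchymal transition were measured for 18 of 27, and 4 passed at 4 h on day 11, all higher (22.2% of the list, beside 18.4% of all probe sets), with a median of 0.06. SNAI1, a known repressor of CDH1, rose by 1.08 ± 0.22 at 4 h on day 11 (SE; adjusted p = 0.00065), when CDH1 also rose, and 1 of its 2 probe sets passed. SMAD3, which carries the signal of TGF-beta, rose by 1.50 ± 0.17 at that time (adjusted p = 2.8e-07) with 1 of 2 probe sets, the other at -0.10. TGFB1 rose by 1.06 ± 0.23 (adjusted p = 0.0013). At 24 h on day 11, 7 rose and 1 fell (44.4%, beside 29.7%), with a median of 0.04. The largest rise was that of CDH2 (2.43), which is also counted among the adherens junction genes.

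Partners and regulators of keratins were measured for 28 of 35. At 4 h, 4 passed on day 4 and 8 on day 11, all higher (14.3% and 28.6% of the list, beside 4.24% and 18.4% of all probe sets), with medians of 0.10 and 0.16. At 24 h on day 11, 10 rose and 2 fell (42.9%, beside 29.7%), and from 4 h to 24 h on day 11, 6 rose and 8 fell (50%, beside 23.2%), with a median of -0.09. The largest difference from controls at 24 h on day 11 was that of HSPA1A, at -1.95 ± 0.32 (SE; limma, adjusted p = 2.1e-05). Of its 6 probe sets, 2 passed, both lower. Fos and Jun proteins are known to act on an enhancer in the first intron of the human KRT18 gene. FOSB rose by 3.24 ± 0.25 (SE; adjusted p = 1.2e-10) and FOSL1 by 1.65 ± 0.20 (adjusted p = 6.7e-07) at 4 h on day 11. From 4 h to 24 h FOSB fell by 3.09 ± 0.25 (adjusted p = 3e-10), with both of its probe sets. FOS and JUN took other courses. FOS rose by 1.45 ± 0.41 at 4 h (adjusted p = 0.013) and was still 1.62 ± 0.41 above controls at 24 h (adjusted p = 0.0030), with both probe sets. JUN was 0.10 from controls at 4 h (adjusted p = 0.78) and rose from 4 h to 24 h by 1.10 ± 0.18 (adjusted p = 4e-05), with 4 of 5 probe sets. On day 4 FOSB rose by 1.22 ± 0.25 at 4 h (adjusted p = 0.0030; 1 of 2 probe sets). A part of these factors in the changes of KRT18 was not tested. CFLAR, an inhibitor of caspase 8, rose by 1.10 ± 0.18 at 4 h on day 4 (adjusted p = 0.00028) and by 2.13 ± 0.18 on day 11 (adjusted p = 9.5e-10), with all 3 of its probe sets.

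Among 2149 genes whose 6 group means spanned at least 1, those with the profile most like KRT18 were DANCR (Pearson r = 0.986 over the 6 means), CCND2, LOC512464, TFPI, HSPH1, UPP1, CPXM2 and CRISPLD2 (0.941). Their means spanned 1.03 to 1.72, against 5.33 for KRT18. DANCR, a noncoding RNA, had means of 6.72, 6.87 and 6.49 on day 4 and 5.79, 6.61 and 6.08 on day 11 at 0, 4 and 24 h, and HSPH1, a heat shock protein, 10.81, 10.95 and 10.44, then 9.77, 10.60 and 10.07. Both ranked the 6 groups in the same order as KRT18.

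The profile of KRT8 was closest to those of KCNMA1 (r = 0.993), PTPMT1 (0.990), MLEC (0.984) and GFM2 (0.980). For CDH1 they were RELL1 (0.977), PTX3 (0.970), TPM4 (0.966) and IL1R1 (0.959), and PTX3, a pentraxin of inflammation and of the ovulating follicle, had a wider span of 4.40 against 2.12 for CDH1. For CGN they were MTIF2 and LRIG3 (0.946 each), LIPT1 (0.941) and ALDH3B1 (0.915). These r values come from 6 means of the same arrays, picked as the highest of 2149, and carry no test. Of the genes beside CDH1 and CGN in the reference, CDH3, another cadherin, had means of 5.93 to 6.57, POGZ of 6.82 to 7.16, and TUFT1 of 6.16 to 7.90.

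**Figure D4:**
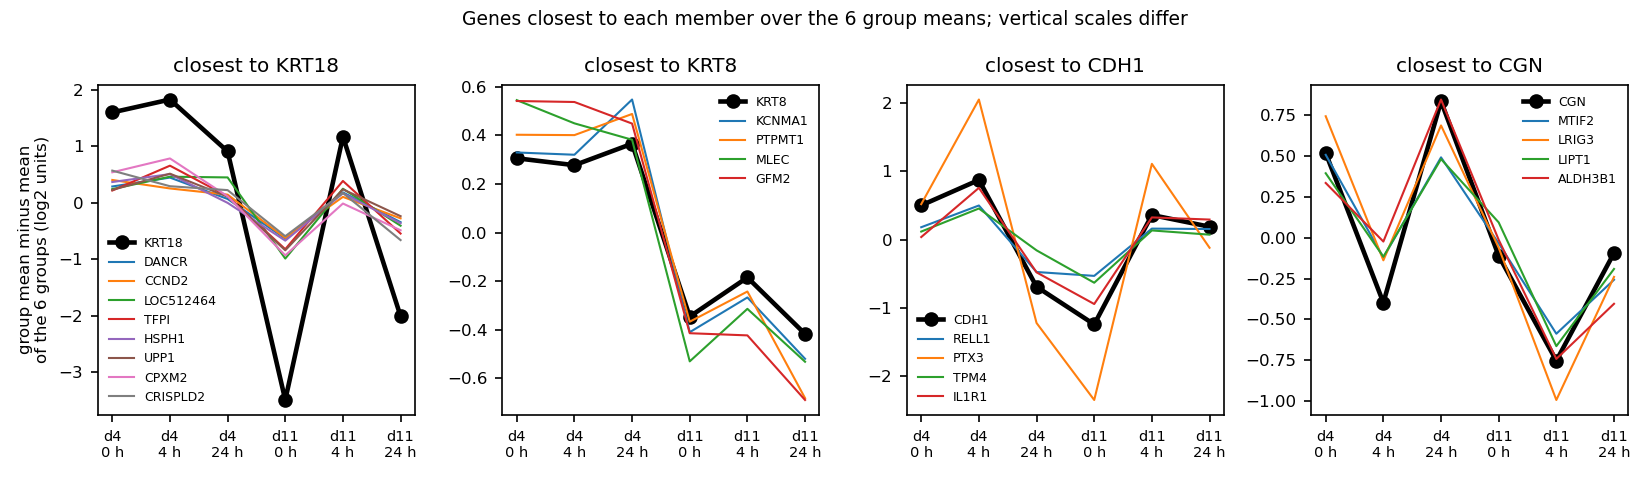
Group mean minus the mean of the 6 group means in log2 units (vertical axis, scale by panel) over the 6 groups (horizontal axis), for each of the 4 genes (black line with points) and the genes with the highest Pearson r to it (thin lines). The KRT18 line is far wider than those beside it (5.33 against 1.03 to 1.72), and PTX3 is wider than CDH1 (4.40 against 2.12).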

How the data were processed

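The submitters deposited 1 table of log2 expression values for the 30 arrays, and per the submitters' processing notes these log2 values were made with RMA, which corrects the background, normalizes the arrays and summarizes the probes of a set. Its version and which arrays it normalized together are not given in the sources used here, nor is any batch or scan date, and the table holds no detection calls. The precision is limited by the 5 arrays of a group.

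From the deposited values, 24016 probe sets were tested, and 112 that are array controls were not. Genes came from the platform annotation: 13292 tested probe sets had 1 symbol, 86 had several and 10638 had none, and only those with 1 symbol were named. A gene with several was represented by its brightest probe set, averaged over all arrays. A mean for each of the 6 groups was fitted in limma 3.58.1 (R 4.3.3), with 24 residual degrees of freedom, and contrasts were tested with moderated statistics and Benjamini-Hochberg adjustment over all tested probe sets, at an adjusted p under 0.05. All adjusted p-values in the text are from this limma fit unless another is named. They judge a difference against the spread between heifers within groups, pooled over the 6 groups and moderated over all tested probe sets. The fit was tested on simulated data with independent normal values and, for each probe set, the same SD in all groups. For 24 h minus 4 h on day 11, 92% of added changes of 1 and 98% of those of 2 passed. Of the calls, 4.52% were false. This simulation held no unequal spread between groups and no arrays that stand apart, so it says nothing about those. Deviations from group means were correlated by two-sided permutation within groups (1e+05 resamples).

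Differences between days in the change from 4 h to 24 h had been planned as tests, but for the 4 genes they are given without one, since they are made of day differences. The 4 genes, the lists of pathway and marker genes and the comparisons were chosen with earlier results of these data known. The text names all 4 genes with each probe set. From each pathway list, up to 4 passing genes with the largest difference per comparison were taken. Of these, the text names ones picked for a known role, so not all of them appear. It also names the 8 genes closest to KRT18 and the 4 closest to each other gene in profile, neighbours in the reference gene order (assembly ARS-UCD2.0) and defining markers. CTNNB1, CTNNA1 and VIM fall outside this rule and were named for their known roles after their values were seen. Alternatives were quantile normalization, centring on array medians, leaving out dim probe sets, a trended and robust variance, array weights, the replicate number as a block, a fit of only the compared groups, the mean of all probe sets of a gene, keeping control probe sets, and leaving out each array. Leaving out both arrays that stood apart was added after seeing the data.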

Additional observations from a re-analysis of the deposited data

Results flagged for a closer look

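In day 4 glands at 4 h, KRT18 in replicate 1 was 11.91, far from the other 4 arrays of the group, which lay between 12.72 and 12.89. The gap was 0.823 of the range of the group. It was the 1 such array among 30 combinations of probe set and group that were examined, and chance alone singles out about 1 in 20 groups in this way.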

How the results depend on the processing

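The changes of CDH1 at 4 h and 24 h on day 11 and from 4 h to 24 h on day 4, the falls of CGN at 4 h on both days, and the fall of KRT18 from 4 h to 24 h on day 11 passed under each alternative run. In a fit of only the compared groups, the fall of CDH1 at 24 h on day 4 (-1.19, adjusted p = 0.053) and the rise of CGN from 4 h to 24 h on day 11 (0.66, adjusted p = 0.083) missed the threshold, and the probe sets passing numbered 147 at 24 h on day 4 (reported: 1240) and 2520 at 4 h on day 11 (reported: 4409); such a fit has fewer samples. Array weights gave 1981 at 4 h on day 4 (reported: 1018) and 2356 at 24 h on day 4, and leaving out both arrays that stood apart gave 2296 there.

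With single arrays left out, the fall of KRT18 from 4 h to 24 h on day 4 ranged from -1.10 to -0.69. With the mean of both CDH1 probe sets, the difference between days in the change of CDH1 from 4 h to 24 h was 0.91. The probe sets passing ranged from 608 (without 4 h replicate 1) to 1120 at 4 h on day 4. At 24 h on day 4 they ranged from 357 (without 24 h replicate 4) to 2071 (without 24 h replicate 1), with 497 without 24 h replicate 2, and 720 and 734 without control replicates 3 and 4.

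Only differences near 0 that passed nowhere turned their sign. KRT8 ranged from -0.11 to 0.13 at 4 h and from -0.021 to 0.218 at 24 h on day 4, and from -0.13 to 0.00969 at 24 h on day 11, and was 0.0325 at 4 h on day 4 with array weights. CGN at 24 h on day 11 ranged from -0.12 to 0.17, and was -0.000305 with quantile normalization and -0.00296 with centring on array medians. The dim CDH1 probe set ranged from -0.0454 to 0.203 at 4 h on day 4, from -0.12 to 0.27 at 24 h on day 11 and from -0.22 to 0.17 between 4 h and 24 h on day 11, where it was 0.00595 with quantile normalization and 0.0587 without both arrays that stood apart. The cause of these shifts was not tested.

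Replicate numbers are shared by the groups. Deviations of arrays with the same number correlated at -0.20 to 0.26 (median 0.049 over 75 pairs, against -0.015 over 300 pairs of other numbers), and 14 of 30 arrays correlated best with their own number, a hint from the data and not from the design. Since the labels tie no number to an animal or batch, the numbers were taken as names. Whether arrays with the same number shared a run or batch cannot be told from the labels. The permutation within groups did not take the numbers into account. With the number as a replicate block, KRT18 differed by -0.92 from 4 h to 24 h on day 4 (adjusted p = 0.029), 1123 probe sets passed at 4 h on day 4, and no call of the 4 genes changed. The dim signal of KRT8 and of the other CDH1 probe set, below the array medians, limits what their small differences can show.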
